A study of Mus musculus with 2 samples.

Results

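The genes described here are *Krt7*, *Krt80*, *Krt8*, *Krt18*, *Krt19*, *Plet1*, *Cldn10*, *Cldn11* and *Sbsn*, 9 of the 31053 genes counted in fibro-adipogenic progenitors (FAPs), the mesenchymal progenitors that lie between the fibers of skeletal muscle. They are keratin, claudin and secreted or surface protein genes best known from epithelia. They were chosen by values measured in these same cells, with the difference between the libraries and between cell classes in view, so those values are given as a description and no test was made of them. FAPs negative for CD45, CD31 and Vcam1 and positive for Sca1 were sorted from limb muscle of 3-week-old C57BL/6 mice and their transcripts were counted by scRNA-Seq in droplets, each genotype giving 1 library. Control mice (Bap1f/f, called Bap1WT) carried floxed *Bap1* alleles without a Cre. Mutant mice (Prx1-Cre;Bap1f/f, called Bap1ΔMPC) carried the same floxed alleles and Prx1-Cre, a transgene active in limb mesenchyme, which gives rise to FAPs and to other connective tissue cells of the limb. How many animals gave each library is not given in the sources used here. With 1 library per genotype, no difference between libraries has a replicate check, no p-value is given, and a difference between genotypes cannot be told apart from a difference between libraries.

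The libraries labelled Bap1WT and Bap1ΔMPC held 4103 and 4378 cells with 51015705 and 49540066 unique molecular identifiers (UMIs, 1 for each captured transcript molecule), and 5 cell barcodes occurred in both. *Bap1*, the gene targeted by the deletion, had 897 UMIs, or 17.6 CPM (UMIs of the gene per 1000000 summed UMIs, exact Poisson 95% interval 16.5 to 18.8), in the library labelled Bap1WT. It had 1072 UMIs, or 21.6 CPM (20.4 to 23.0), in the library labelled Bap1ΔMPC, so its counts were not lower there. The study reported *Bap1* as disrupted in FAPs of Bap1ΔMPC mice by separate measurements. Counts per gene do not show which exons a transcript held, and all directions below are those of the libraries as labelled. Intervals in this text are at 95% and cover counting error only.

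Cells were called Dpp4-type where *Pi16*, *Sema3c*, *Anxa3* and *Efemp1* together had 25 or more UMIs per 10000 UMIs of the cell. This class is a range of a score, not a cluster. The score genes themselves had log2 ratios of -0.56, 0.27, -0.58 and 0.34 between the libraries in these cells. It held 1050 cells (25.6%) of the library labelled Bap1WT and 1251 cells (28.6%) of the library labelled Bap1ΔMPC, with a median of 13635 and 11661 UMIs per cell. The other 3053 and 3127 cells had a median of 11829 and 10733 UMIs. Within 5 units of the threshold lay 210 and 337 cells. Among 7 further markers of Dpp4-type FAPs that the score did not use, 7 were over 3-fold higher in Dpp4-type than in other cells of the library labelled Bap1WT and 4 in the library labelled Bap1ΔMPC. The level of *Dpp4* itself was 298 CPM in Dpp4-type and 56.5 CPM in other cells of the library labelled Bap1WT, and 268 CPM and 39.5 CPM in the library labelled Bap1ΔMPC. Of 10 markers of Cxcl14-type FAPs, 9 were over 3-fold lower in Dpp4-type cells in each library.

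Keratins are the intermediate filament proteins of epithelial cells, and a filament needs a type II keratin paired with a type I keratin. *Krt7*, *Krt80* and *Krt8* encode type II keratins and *Krt18* and *Krt19* type I keratins, and the pair of Krt8 and Krt18 is the usual filament of simple epithelia. Claudins are the membrane proteins that form the strands of tight junctions. Claudin-10 forms pores for ions between cells, and claudin-11 is known from myelin and from Sertoli cells. *Plet1* encodes a surface protein known from placenta and from epithelial progenitors, and *Sbsn* encodes suprabasin, a secreted protein of differentiating keratinocytes.

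Among these genes in Dpp4-type cells, *Krt7* and *Plet1* had the largest differences between the libraries, and *Cldn10* the opposite one. In Dpp4-type cells *Krt7* was 31.4-fold higher, *Plet1* 23.8-fold higher and *Cldn11* 5.88-fold higher in the library labelled Bap1ΔMPC, while *Cldn10* was 13.9-fold lower. *Krt80* was 2.55-fold higher, *Krt19* 2.77-fold lower and *Sbsn* 1.13-fold higher. *Krt8* and *Krt18* had no UMI in any of the 8481 cells.

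To show the start sites of the genes that differed most, the windows from 250 bases before to 50 bases after the annotated start of *Krt7* (chr15:101412153-101412452), *Plet1* (chr9:50494275-50494574), *Cldn11* (chr3:31149670-31149969) and *Cldn10* (chr14:118787621-118787920 and chr14:118854700-118854999) are given from RefSeq on GRCm38.p6, the build of the deposited counts (mm10). All 5 lie on the plus strand, and capitals mark the CpG dinucleotides, which are the sites of DNA methylation.
Krt7: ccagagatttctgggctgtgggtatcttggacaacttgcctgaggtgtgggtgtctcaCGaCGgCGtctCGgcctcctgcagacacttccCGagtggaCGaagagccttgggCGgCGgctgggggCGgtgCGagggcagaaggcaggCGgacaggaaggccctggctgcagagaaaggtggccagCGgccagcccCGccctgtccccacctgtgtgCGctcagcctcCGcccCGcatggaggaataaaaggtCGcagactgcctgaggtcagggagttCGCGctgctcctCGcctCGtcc
Plet1: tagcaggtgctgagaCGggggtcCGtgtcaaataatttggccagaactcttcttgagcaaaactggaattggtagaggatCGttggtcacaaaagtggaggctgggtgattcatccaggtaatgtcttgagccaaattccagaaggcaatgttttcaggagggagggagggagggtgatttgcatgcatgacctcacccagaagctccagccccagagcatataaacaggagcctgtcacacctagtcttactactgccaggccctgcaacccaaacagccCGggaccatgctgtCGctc
Cldn11: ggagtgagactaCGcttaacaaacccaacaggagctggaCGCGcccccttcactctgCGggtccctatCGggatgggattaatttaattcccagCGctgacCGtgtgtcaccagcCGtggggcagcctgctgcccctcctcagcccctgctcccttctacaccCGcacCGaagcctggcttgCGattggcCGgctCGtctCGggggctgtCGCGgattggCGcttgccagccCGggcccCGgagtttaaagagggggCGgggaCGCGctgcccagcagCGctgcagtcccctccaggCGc
Cldn10 upstream start: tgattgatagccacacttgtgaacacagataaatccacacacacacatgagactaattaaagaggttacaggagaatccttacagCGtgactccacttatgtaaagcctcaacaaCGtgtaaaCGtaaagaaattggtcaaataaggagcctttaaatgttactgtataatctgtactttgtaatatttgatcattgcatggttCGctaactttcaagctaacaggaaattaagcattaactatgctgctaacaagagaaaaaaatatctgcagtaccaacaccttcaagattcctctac
Cldn10 downstream start: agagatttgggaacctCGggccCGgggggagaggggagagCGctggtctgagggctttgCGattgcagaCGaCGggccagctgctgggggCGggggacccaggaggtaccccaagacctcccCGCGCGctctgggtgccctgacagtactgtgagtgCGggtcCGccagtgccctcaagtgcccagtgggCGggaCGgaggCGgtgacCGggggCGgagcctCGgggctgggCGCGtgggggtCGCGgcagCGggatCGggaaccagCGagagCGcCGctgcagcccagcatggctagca
Windows were found for 7 of the 9 genes, *Cldn10* having 2, and none were found for *Krt80* and *Krt19*. The median over 32851 windows was 7 CpG. The windows of *Krt7* and *Cldn11* held 21 and 24 CpG, those of *Plet1* and *Sbsn* 5 and 3, and those of *Krt8* and *Krt18* 6 and 17. The upstream start of *Cldn10* held 4 and the downstream start 27, and counts per gene do not tell transcripts from these starts apart. Motifs were searched by their letters on both strands. The AP-1 motif TGANTCA, held by 7.81% of all windows, occurred 1 time in the *Plet1* window, 2 times in that of *Sbsn* and in none of the other 6. The TFAP2 motif (GCCNNNGGC; 16.6% of windows) occurred 2 times and the GC box GGGCGG (35.7% of windows) 4 times in that of *Krt7*, and the letters of both can overlap. The GC box also occurred 1 time in that of *Cldn11* and 3 times at the downstream start of *Cldn10*, and the TFAP2 motif 1 time in that of *Krt18*. The Grainyhead-like motif (AACCNGGTT; 0.271% of windows) was in none. The TATA box TATAAA (13.6% of windows) was in those of *Plet1* and *Krt8*. These are matches of letters, not sites of binding.

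Among type II keratins, *Krt7* had 26 UMIs in Dpp4-type and 45 UMIs in other cells of the library labelled Bap1WT, against 854 and 411 UMIs in those of the library labelled Bap1ΔMPC. Its level was 1.84 CPM (1.20 to 2.70) and 1.22 CPM (0.890 to 1.63) in the former, and 57.8 CPM (54.0 to 61.8) and 11.8 CPM (10.7 to 13.0) in the latter. Both classes of the second library thus lay above both classes of the first, beyond counting error. The log2 ratio between the libraries was 4.97 (4.41 to 5.60) in Dpp4-type cells, rank 7 from the top among 11599 genes, and 3.28 (2.83 to 3.75) in other cells. A UMI of *Krt7* was found in 2.00% of Dpp4-type cells of the library labelled Bap1WT and in 14.2% of those of the library labelled Bap1ΔMPC, or 1.21% and 12.1% with each cell thinned to 6000 UMIs. Positive Dpp4-type cells of the second library held up to 40 *Krt7* UMIs, and the 10 highest held 24.8% of the *Krt7* UMIs of that class. In cells with a score under 5, which stand farthest from the Dpp4-type class, the share was 0.509% and 1.53%, at a median of 11522 and 10647 UMIs per cell. In the same cells the shares were 0.848% and 1.82% for *Krt80*, 0 and 0.493% for *Plet1*, 0.283% and 0.640% for *Cldn11*, and 13.3% and 22.6% for *Sbsn*, so each of these shares was below that of Dpp4-type cells.

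*Krt80*, whose product is found in differentiating epithelia, was already a Dpp4-type gene in the library labelled Bap1WT, with 44.1 CPM (40.7 to 47.7) in Dpp4-type and 1.54 CPM (1.17 to 2.00) in other cells. The library labelled Bap1ΔMPC had 112 CPM (107 to 118) and 10.6 CPM (9.56 to 11.8). It was thus higher in that library in both classes, with a log2 ratio of 1.35 (1.22 to 1.48) in Dpp4-type and 2.78 (2.37 to 3.21) in other cells, the former below 3-fold. The share of Dpp4-type cells with a *Krt80* UMI was 35.6% and 55.6% (thinned 23.2% and 41.5%).

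*Krt8* and *Krt18* are listed in both tables with no UMI. Taken as 3 counts over the number of cells deposited, a count of 0 allows a share of cells with a UMI of up to 0.0731% in the library labelled Bap1WT and 0.0685% in the library labelled Bap1ΔMPC, and the exact binomial upper limits were 0.0899% and 0.0842%. The study removed cells with high levels of marker genes of cells other than FAPs, and the genes and limits it used are not given in the sources used here. Whether that step bears on the counts of 0 was not tested.

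The type I keratin *Krt19* differed from the type II keratins. It had 217 UMIs in Dpp4-type and 59 UMIs in other cells of the library labelled Bap1WT, and 82 and 115 UMIs in those of the library labelled Bap1ΔMPC. As CPM these were 15.4 (13.4 to 17.6) and 1.60 (1.22 to 2.06) against 5.55 (4.42 to 6.89) and 3.31 (2.73 to 3.97). The gene was thus lower in Dpp4-type cells of the library labelled Bap1ΔMPC, with a log2 ratio of -1.47 (-1.85 to -1.10), and higher in its other cells, with 1.05 (0.58 to 1.53). With cells thinned to 6000 UMIs the latter was 0.53 and its interval, from -0.16 to 1.25, held 0. Few cells carried the counts outside the Dpp4-type class, where 10 cells held 64.4% and 63.5% of the *Krt19* UMIs of other cells in the libraries.

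**Figure D1:**
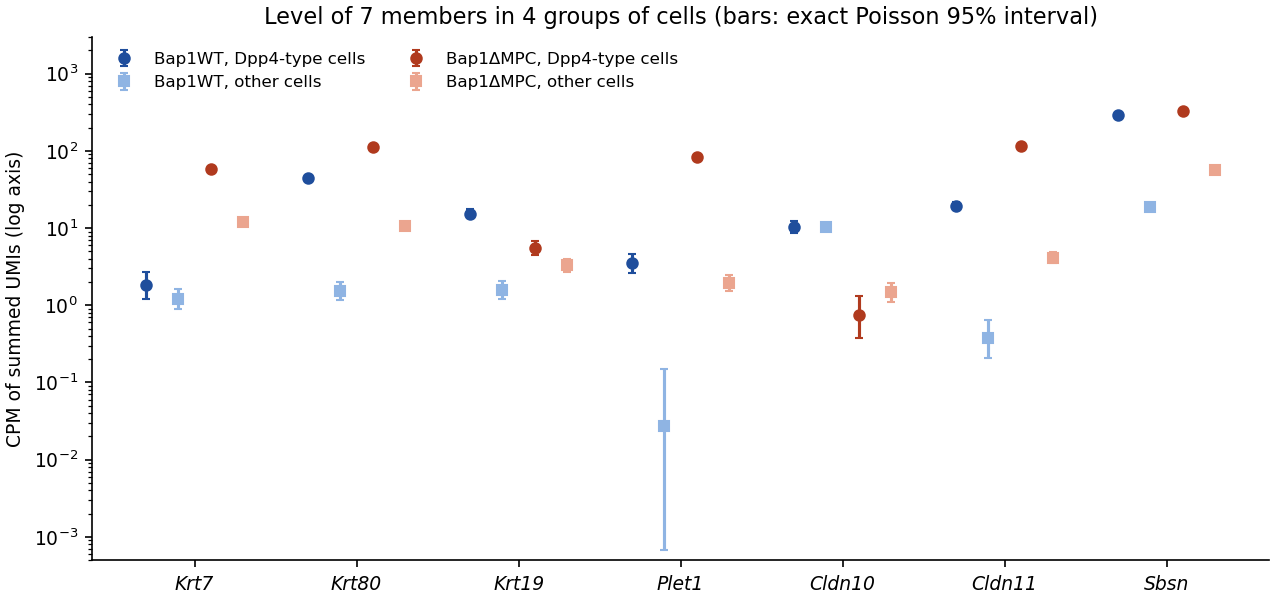
Level of 7 of the 9 genes, as CPM of summed UMIs on a log axis, in Dpp4-type cells (circles) and other cells (squares) of the libraries labelled Bap1WT (blue) and Bap1ΔMPC (red), with exact Poisson 95% intervals. *Krt7* lay near 1 to 2 CPM in both blue groups and at 57.8 and 11.8 CPM in the red ones, *Cldn10* showed the opposite order, and *Krt8* and *Krt18*, with no UMI, are not drawn.

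*Plet1* had few UMIs outside the Dpp4-type class. The library labelled Bap1WT held 50 UMIs in Dpp4-type cells and 1 UMI in other cells, and the library labelled Bap1ΔMPC held 1245 and 68 UMIs. In Dpp4-type cells these were 3.54 CPM (2.63 to 4.67) and 84.3 CPM (79.7 to 89.1), a log2 ratio of 4.57 (4.17 to 5.01), rank 9 from the top. In other cells the ratio was 6.17 (3.65 to 11.50), the wide interval coming from the single UMI. *Plet1* transcripts were concentrated in few cells, since 1.33% and 11.3% of Dpp4-type cells had a UMI (thinned 0.907% and 10.6%), with 8.83 UMIs per positive cell and a maximum of 81 in the library labelled Bap1ΔMPC. The 10 Dpp4-type cells with most *Plet1* held 30.8% of the *Plet1* UMIs of that class there and 92.0% in the library labelled Bap1WT. The gene *Plet1os* overlaps *Plet1* (chr9:50488799-50504805 and chr9:50494525-50505639), and whether the counting used strand is not given in the sources used here. *Plet1os* had 21 and 51 UMIs in Dpp4-type cells, a log2 ratio of 1.22 (0.46 to 2.02).

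The 2 claudin genes differed in opposite directions. *Cldn11* had 273 UMIs in Dpp4-type and 14 UMIs in other cells of the library labelled Bap1WT, and 1680 and 144 UMIs in those of the library labelled Bap1ΔMPC. Its level in Dpp4-type cells was 19.3 CPM (17.1 to 21.8) and 114 CPM (108 to 119), a log2 ratio of 2.56 (2.37 to 2.75), with a ratio of 3.45 (2.65 to 4.36) in other cells. The share of Dpp4-type cells with a UMI was 13.0% and 31.4% (thinned 7.76% and 26.3%). *Cldn10* had 146 and 381 UMIs in Dpp4-type and other cells of the library labelled Bap1WT, against 11 and 51 UMIs in those of the library labelled Bap1ΔMPC. In Dpp4-type cells it was at 10.3 CPM (8.73 to 12.2) and 0.745 CPM (0.372 to 1.33), a log2 ratio of -3.80 (-4.83 to -2.91), rank 4 from the bottom. In other cells the ratio was -2.82 (-3.27 to -2.39). *Cldn10* was thus lower in both classes of the library labelled Bap1ΔMPC, and no more than 2 of its UMIs were found in any cell there.

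*Sbsn* was found in most Dpp4-type cells of both libraries, 63.8% and 65.2% (thinned 51.9% and 56.4%). Its level in them was 287 CPM (278 to 296) and 325 CPM (316 to 334), a log2 ratio of 0.18 (0.12 to 0.24) beside a median of 0.07 over all genes. Other cells differed more, with 18.5 CPM (17.1 to 19.9) and 57.2 CPM (54.7 to 59.8), a log2 ratio of 1.63 (1.51 to 1.76). That ratio was just over 3-fold and fell below it with TMM scaling (1.53), with the mean over cells (1.57) and with a score threshold of 15 (1.46).

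In Dpp4-type cells, 7 of the 9 genes had enough counts to enter (20 or more UMIs over both libraries and an average normalized expression over 0.01). Of these, 3 were over 3-fold higher in the library labelled Bap1ΔMPC, where 1.47% of 11599 genes were, and 1 was over 3-fold lower, where 1.22% of genes were. In other cells 5 were over 3-fold higher, against 1.90% of 11757 genes, and 1 was lower, against 1.17%. The median log2 ratio of the 7 genes was 1.35 in Dpp4-type and 2.78 in other cells, beside 0.07 and 0.11 over all genes. Since the genes were chosen with this difference known, nothing is read from these counts. With cells called by a *Dpp4* UMI in place of the score, *Krt80* also passed 3-fold in the Dpp4 class, with a log2 ratio of 1.63.

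The genes were next compared between the classes that give the group its name. They were chosen with the difference between cell classes in view, so this is a description and no check of the name. Nothing is read from the counts of genes over 3-fold below. *Krt80*, *Plet1*, *Cldn11* and *Sbsn* were over 3-fold higher in Dpp4-type than in other cells in each library, *Krt19* only passed 3-fold in the library labelled Bap1WT and *Krt7* only in the library labelled Bap1ΔMPC. This made 5 genes higher and 0 lower in each library, where 2.38% of 11746 genes were higher and 5.36% lower in the library labelled Bap1WT and 1.85% of 11758 genes higher and 5.48% lower in the library labelled Bap1ΔMPC. The log2 ratio of *Krt80* between classes was 4.83 (4.44 to 5.25) and 3.40 (3.24 to 3.57), that of *Cldn11* 5.67 (4.90 to 6.56) and 4.78 (4.53 to 5.04), and that of *Sbsn* 3.96 (3.84 to 4.08) and 2.51 (2.43 to 2.58). *Plet1* had 7.03 (4.49 to 12.36) and 5.43 (5.08 to 5.80). *Krt7* had 0.59 (-0.16 to 1.32) in the library labelled Bap1WT, an interval that held 0 (-0.28 with a score threshold of 40), and 2.29 (2.12 to 2.46) in the library labelled Bap1ΔMPC. The ratio of *Krt19* was 3.27 (2.84 to 3.71) and 0.75 (0.32 to 1.17). *Cldn10* did not bear out the name: its ratio was 0.00 (-0.28 to 0.28) and -0.98 (-2.07 to -0.02), so it was a gene of both classes. *Krt8* and *Krt18*, with no UMI, gave no ratio. When the class was taken by a *Dpp4* UMI, 2 genes passed 3-fold in the library labelled Bap1ΔMPC, and the ratio of *Plet1* there was 0.75 and that of *Krt7* 0.68. The share of all genes over 3-fold was not counted for that class, so nothing is read from this number of genes.

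**Figure D2:**
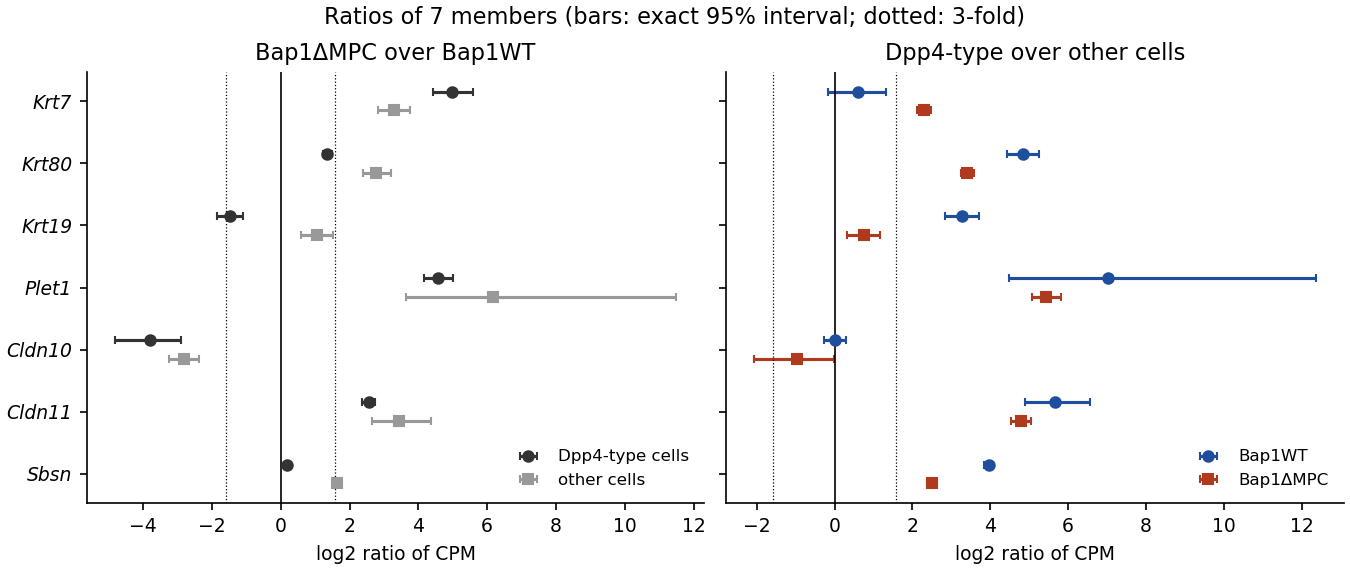
Log2 ratios of CPM of 7 genes with exact 95% intervals and dotted lines at 3-fold. Left, the library labelled Bap1ΔMPC over that labelled Bap1WT in Dpp4-type (black circles) and other cells (grey squares), where *Krt19* lay at -1.47 and 1.05. Right, Dpp4-type over other cells in each library, where *Cldn10* lay at 0.00 and -0.98.

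Along the score, the genes differed in their course. *Krt80*, *Plet1*, *Cldn11* and *Sbsn* were higher in each successive range in the library labelled Bap1ΔMPC, with *Cldn11* at 7.70 CPM in cells of 5 to 15, 83.2 CPM in cells of 25 to 50 and 216 CPM (187 to 248) in cells of 100 or more. The step was later for *Plet1*, which had 22.4 CPM (19.2 to 26.0) in cells of 25 to 50 of that library and reached 139 CPM (130 to 148) in cells of 50 to 100 and 241 CPM (210 to 275) in cells of 100 or more. *Krt7* had a different course there, with 51.1 CPM (44.5 to 58.5) in cells of 15 to 25, 62.2 CPM (56.8 to 68.0) in cells of 25 to 50 and 29.6 CPM (19.5 to 43.1) in cells of 100 or more. It was thus high on both sides of the threshold, and the intervals of the ranges beside it overlapped. *Krt19* went from 1.48 CPM in cells under 5 to 39.4 CPM (31.0 to 49.4) in cells of 100 or more of the library labelled Bap1WT, but stayed between 2.19 and 6.22 CPM in all ranges of the library labelled Bap1ΔMPC. *Cldn10* stayed between 8.03 and 11.6 CPM in the first library and between 0.652 and 1.70 CPM in the second. At a score of 100 or more, *Sbsn* had 648 CPM (612 to 685) and 657 CPM (605 to 712) in the libraries, which counting error did not separate.

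Just outside and just inside the threshold, in cells of 20 to 25 and 25 to 30, *Krt7* had 60.7 and 58.6 CPM in the library labelled Bap1ΔMPC, *Krt80* 61.7 and 73.1 CPM, *Cldn11* 23.9 and 61.9 CPM and *Sbsn* 162 and 164 CPM. *Plet1* had 9.34 and 1.41 CPM there, from 18 and 3 UMIs. In the library labelled Bap1WT the ranges held 53 and 69 UMIs of *Sbsn* and 15 or fewer of each other gene.

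**Figure D3:**
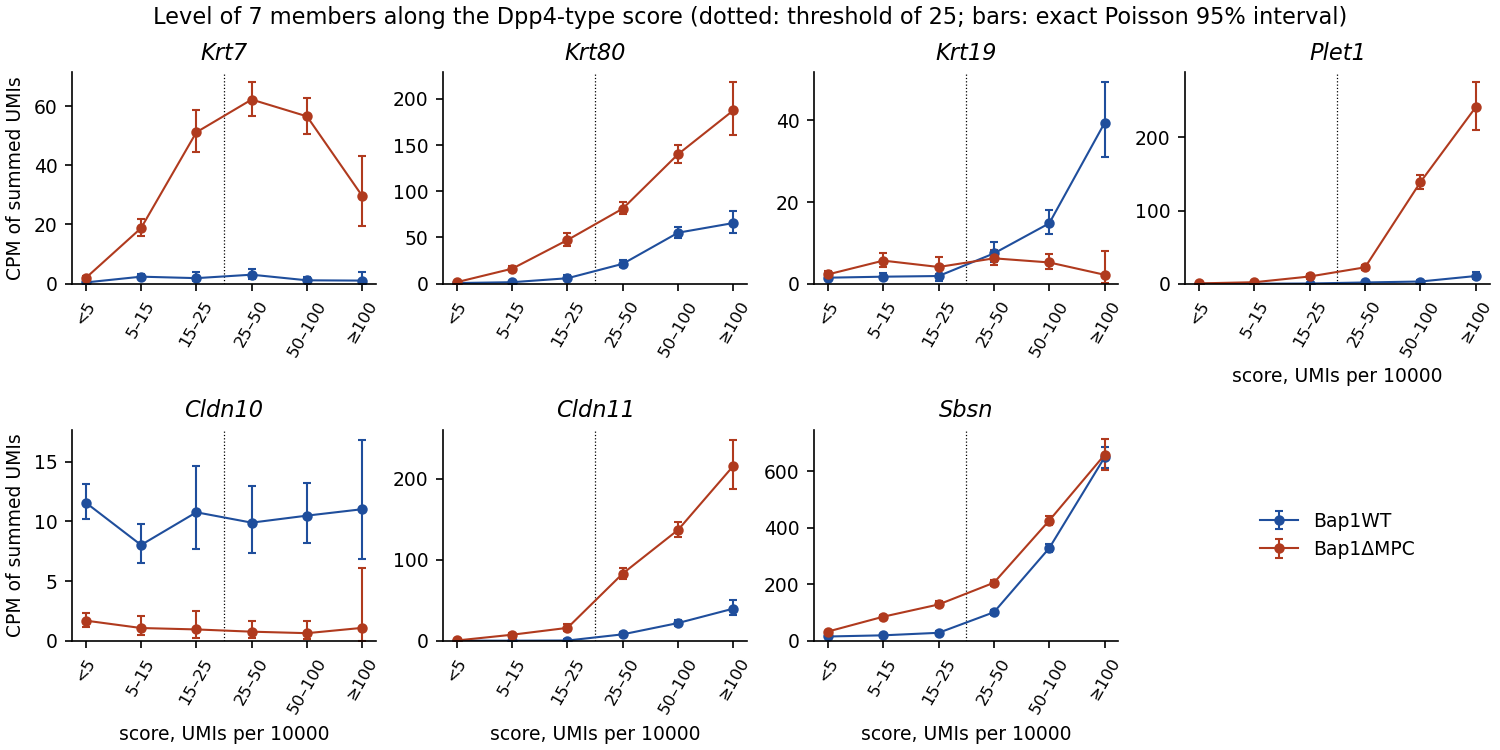
CPM of 7 genes in 6 ranges of the score, in UMIs of the 4 score genes per 10000, for the libraries labelled Bap1WT (blue) and Bap1ΔMPC (red), with exact Poisson 95% intervals and a dotted line at the threshold of 25. *Plet1* in red reached 241 CPM in the highest range, where *Krt7* in red was at 29.6 CPM.

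Detection in the same cell was compared with the number that the product of the shares gives, over the Dpp4-type cells of a library. Cells share library and depth, and several of the genes differed along the score within the class, so this is a description. In the library labelled Bap1ΔMPC, 38 cells had both *Krt7* and *Plet1*, where the product gave 20.1 cells, a ratio of 1.89 (2.13 with thinned cells). Of the cells with *Plet1*, 27.0% also had *Krt7*, against 12.6% of those without. *Plet1* and *Cldn11* shared 63 cells where the product gave 44.3, *Plet1* and *Krt80* 105 cells where it gave 78.3, and *Plet1* and *Sbsn* 128 cells where it gave 92.0. *Krt80* and *Cldn11* shared 277 cells where it gave 218. *Krt7* and *Sbsn* were near the product, with 119 cells where it gave 116. In the library labelled Bap1WT, *Krt19* and *Sbsn* shared 96 cells where the product gave 68.9, and *Krt19* and *Cldn11* 23 cells where it gave 14.1. *Krt80* and *Cldn10* went the other way there, with 29 cells where it gave 39.2.

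The type II keratin *Krt7* and the type I keratin *Krt19* were found together in 4 Dpp4-type cells of the library labelled Bap1ΔMPC, where the product gave 5.26, so 2.25% of its *Krt7* cells also had a *Krt19* UMI. Of the other type I keratins, *Krt10*, a keratin of differentiated epidermis, had 51.9 CPM (48.2 to 55.8) and 33.2 CPM (30.4 to 36.3) in Dpp4-type cells of the libraries labelled Bap1WT and Bap1ΔMPC, and *Krt20*, an intestinal and urothelial keratin too low to enter, had 69 and 14 UMIs.

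**Figure D4:**
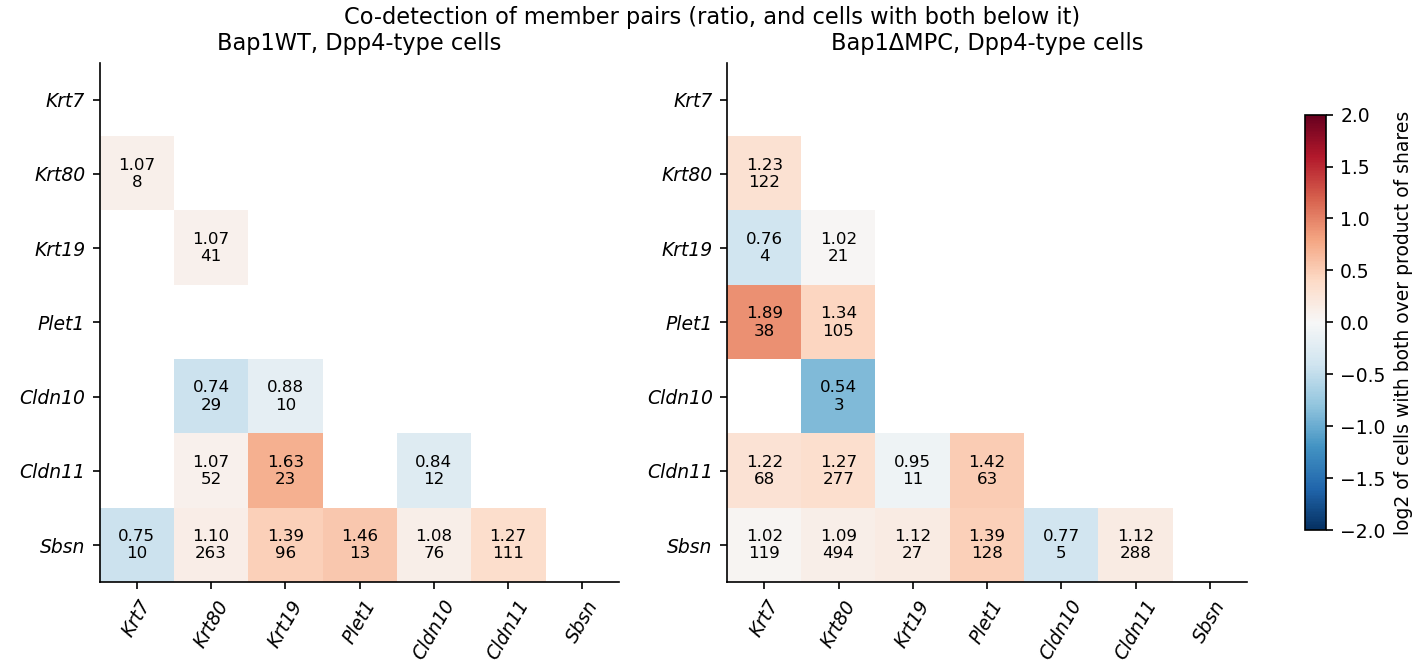
Co-detection of gene pairs in Dpp4-type cells of each library, as the number of cells with both over the product of the shares (upper number and color, log2 scale) with the number of cells with both below it. Pairs for which the product gave under 5 cells are blank, and the pair of *Krt7* and *Plet1* in the library labelled Bap1ΔMPC had a ratio of 1.89.

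Cells of the Dpp4-type class with a UMI of 3 or more of the genes made 12.1% of the class in the library labelled Bap1WT and 27.7% in the library labelled Bap1ΔMPC, or 4.33% and 18.0% with thinned cells. Among other cells the shares were 0.0655% and 1.50%. Since the genes were chosen with the differences between libraries and classes in view, nothing is read from these shares. A single cell, a Dpp4-type cell of the library labelled Bap1ΔMPC, had 6 of the genes. The 281 Dpp4-type cells with *Krt7* or *Plet1* in the library labelled Bap1ΔMPC had 169 CPM (156 to 184) of *Krt80* and 144 CPM (132 to 158) of *Cldn11*, against 95.5 CPM (90.0 to 101) and 105 CPM (99.0 to 111) in the 970 Dpp4-type cells with neither. In the library labelled Bap1WT, the 34 such cells had 66.5 CPM (45.5 to 93.9) of *Krt80*. The 1016 cells with neither had 43.3 CPM (39.9 to 46.9), and the intervals overlapped. *Cldn11* went the other way there, with 1 UMI in the 34 cells, or 2.08 CPM (0.0526 to 11.6), against 19.9 CPM (17.6 to 22.5). Within the 281 cells of the library labelled Bap1ΔMPC, *Sbsn* was at 728 CPM (680 to 777) in the 103 cells with *Plet1* alone. It was at 203 CPM (182 to 226) in the 140 cells with *Krt7* alone. These sets also differed in their median score, 74.5 and 43.6, along which *Sbsn* itself differed, and the part of the score in this difference was not tested.

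**Figure D5:**
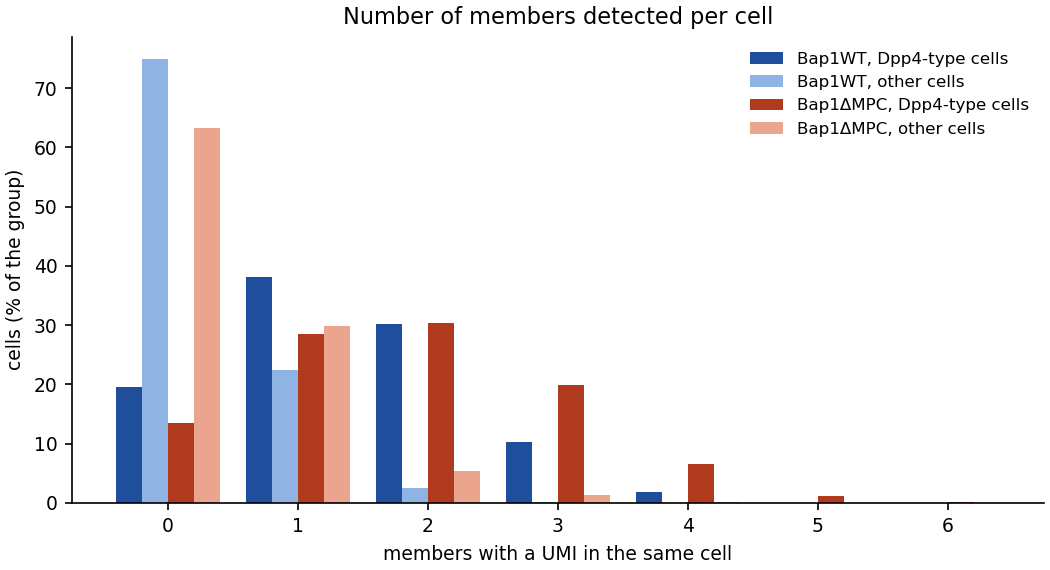
Share of cells, in percent of each of the 4 groups, by the number of the 9 genes with a UMI in the same cell. Cells with 3 or more of them made 27.7% of Dpp4-type cells in the library labelled Bap1ΔMPC and 12.1% in the library labelled Bap1WT. The genes were chosen with differences between libraries and classes in view.

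The genes with the most similar pattern over Dpp4-type cells were taken by Pearson's r of log UMIs per 10000, over 1050 and 1251 cells that share a library. *Sbsn* was most like *Krtdap*, a keratinocyte gene of the same locus, with r of 0.60 and 0.42 in the libraries labelled Bap1WT and Bap1ΔMPC, followed by *Igfbp5* (0.53) and *Il34* (0.48) in the first and by *Ildr2* (0.40) and *Olfml2a* (0.39) in the second. *Krt80* was most like *Pla1a*, *Pcsk6* and *Olfml2a* in the first library (0.29, 0.28 and 0.25) and *Pcsk6*, *Pla1a* and *Adamts5* in the second (0.36, 0.33 and 0.33). *Plet1* was most like *Olfml2a* (0.36), *Sbsn* (0.30) and *Dact2* (0.29), *Cldn11* most like *Dact2* (0.31), *Aif1l* (0.29) and *Car8* (0.29), and *Krt7* most like *Fbln2* (0.23) and *Robo1* (0.22), all in the library labelled Bap1ΔMPC. *Cldn10* in the library labelled Bap1WT was most like the collagen genes *Col1a2* and *Col1a1* (0.29 and 0.29) and *Creb3l3* (0.28). *Krt19* there was most like *Sbsn* (0.25), *Prss23* (0.24) and *Igfbp5* (0.24), and *Cldn11* there like *Igfbp5* (0.21).

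Genomic neighbors of the genes were described next. *Krt80* and *Krt7* are neighbors on chromosome 15 (chr15:101348315-101370162 and chr15:101412403-101427806), 42241 bases apart, and were both higher in the library labelled Bap1ΔMPC. On their other side *Atg101* had a log2 ratio of -0.12 in Dpp4-type cells, and *Nr4a1*, 1 gene farther, 0.39. Farther along the type II cluster, *Krt1* had 1 and 11 UMIs and *Krt79* 49 and 141 UMIs, a log2 ratio of 1.46 (0.98 to 1.96). *Sbsn* lies beside *Dmkn* and *Krtdap* on chromosome 7, a locus of secreted proteins of stratified epithelia. *Dmkn* had 9.78 CPM (8.21 to 11.6) and 32.0 CPM (29.2 to 35.1) in Dpp4-type cells, a log2 ratio of 1.71 (1.44 to 2.00), while *Krtdap* had -0.44 (-0.54 to -0.35). *Slc7a14* beside *Cldn11* had 1.59 (1.07 to 2.14), and the others on its sides, *Prkci*, *Skil* and *Zmat3*, -0.28, 0.04 and 0.41. *Pts* and *Bco2* beside *Plet1* had 0.69 and 0.70, and *Rpl10-ps3* 0.06. *Gpr180*, *Abcc4*, *Dzip1* and *Dnajc3* around *Cldn10* had -0.27, 1.12, -0.27 and -0.01. Near *Krt19*, *Eif1* had -0.15, and *Hap1*, with only 19 and 8 UMIs, had -1.31 (-2.71 to -0.05). *Krt36* and *Krt13* had 23 or fewer UMIs in each class of each library. *Tmem147* and *Haus5* beside *Sbsn* had -0.02 and 0.24, the latter from 43 and 53 UMIs with an interval of -0.37 to 0.85. *Eif4b* and *Tns2* beyond *Krt18* had 0.18 and 0.20. Of 22 neighbors that entered, 2 were over 3-fold higher, beside 1.47% of all genes, and 0 lower, beside 1.22%, with a median of 0.12.

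Other genes of epithelial junctions and filaments were mostly too low to enter, and the counts that follow stand beside 1.47% of all genes over 3-fold higher and 1.22% lower in Dpp4-type cells. Of the 44 other keratin genes, 19 had no UMI and 2 entered, with 0 over 3-fold between the libraries in Dpp4-type cells, and of the 25 other claudin genes 10 had no UMI and 6 entered, also with 0. The 2 keratins that entered were *Krt10*, with a log2 ratio of -0.64 (-0.81 to -0.47), and *Krt79*, and both differed beyond counting error. Below the limit, *Krt20* had -2.37 (-3.31 to -1.52), and *Krt23* and *Krt1* differed in opposite directions, with 17 and 3 UMIs and with 1 and 11 UMIs. In other cells, where 1.90% of all genes were over 3-fold higher and 1.17% lower, 8 claudin genes entered. Of these, *Cldn2* was over 3-fold higher with 2.77 (2.16 to 3.44) and *Cldn22* lower with -1.59 (-2.01 to -1.19). *Cldn3*, a claudin of many epithelia, was like *Cldn11* in its class, with 18.6 CPM (16.4 to 21.0) in Dpp4-type and 0.542 CPM (0.331 to 0.837) in other cells of the library labelled Bap1WT. It was lower in Dpp4-type cells of the library labelled Bap1ΔMPC, with 12.2 CPM (10.5 to 14.1) and a log2 ratio of -0.61 (-0.89 to -0.33). Of 19 tight junction and polarity genes 9 entered with 0 over 3-fold and a median log2 ratio of -0.15, and of 14 desmosome and adherens junction genes 6 entered with 0 over 3-fold and a median of 0.25. Of 12 other intermediate filament and linker genes 8 entered with 0 over 3-fold and a median of 0.05. Of 14 genes of cornification and the suprabasin locus 3 entered, of which *Dmkn* was over 3-fold higher, and *Ivl*, *Flg*, *Sprr1b* and *Calml3* had no UMI.

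Several defining genes of epithelial and mesothelial cells had no UMI or few UMIs in Dpp4-type cells. Among 21 epithelial lineage genes, *Cdh1*, *Krt5*, *Krt14* and *Prss8* had no UMI and *Epcam* had 1 and 2 UMIs in Dpp4-type cells of the libraries labelled Bap1WT and Bap1ΔMPC. The list summed to 20.8 and 13.7 CPM in Dpp4-type and 4.20 and 4.34 CPM in other cells, and *Cldn3* gave 262 of 293 and 180 of 202 of its UMIs in Dpp4-type cells. Among 10 mesothelial genes, *Upk1b* and *Muc16* had no UMI and *Msln* had 1 and 0 UMIs in Dpp4-type cells, and the list summed to 4.18 and 2.17 CPM in Dpp4-type and 15.8 and 13.8 CPM in other cells. Its gene *Nkain4* had a log2 ratio of -1.95 in Dpp4-type cells. A UMI of 2 or more genes of these lists was found in 99 cells. Of these, 13 and 6 were Dpp4-type cells of the libraries labelled Bap1WT and Bap1ΔMPC. Without the 99 cells, the log2 ratio in Dpp4-type cells was 4.93 for *Krt7*, 4.56 for *Plet1*, 2.59 for *Cldn11* and -3.94 for *Cldn10*. With so few cells of the class removed, these ratios could hardly change, and nothing is read from them. Perineurial markers summed to 18.6 and 13.8 CPM in Dpp4-type and 17.7 and 28.4 CPM in other cells.

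Markers of further cell types and states were read in the same way, over Dpp4-type cells of the libraries labelled Bap1WT and Bap1ΔMPC. Endothelial markers summed to 1.42 and 2.37 CPM, immune markers to 4.25 and 7.04 CPM with *Ptprc* at 0, muscle stem cell markers to 18.6 and 4.74 CPM with *Pax7*, *Myf5* and *Myod1* at 0, and tendon markers to 8.08 and 12.3 CPM. The cells had been sorted, and those high in marker genes of other cell types had been removed. Whether these steps bear on the counts of 0 here and in the lists above was not tested. Schwann cell markers summed to 15.9 and 39.0 CPM, mural markers to 31.6 and 18.4 CPM, myofiber markers to 43.6 and 44.1 CPM and cycling markers to 47.0 and 72.5 CPM. FAP identity genes, led by collagens, summed to 61533 and 42324 CPM. Genes of these lists with enough counts and over 3-fold were *S100b*, with a log2 ratio of 1.84, *Vcam1* with -2.12 and *Kcnj8* with -1.82, and of the Cxcl14-type markers *Cxcl14* with 2.65 and *Sparcl1* with -1.59. Their part in the differences of the 9 genes was not tested.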

How the data were processed

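Single FAPs of 2 libraries, 1 per genotype, were measured. The authors deposited filtered UMI counts per gene and cell, made per the labels and methods with Cell Ranger 3.1.0 on mm10, Seurat 3.2.1 and R 3.6.1, with FastQC 0.11.7 and bcl2fastq 2.20.0 upstream. Their filtering set the range of genes per cell, so cells outside it are not seen here, and cells high in marker genes of other cell types had been removed.

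The members and gene lists were chosen with earlier results of these data known. UMIs were summed per library and cell class and divided by the summed UMIs of all genes (CPM), with exact Poisson, Clopper-Pearson binomial and conditional binomial intervals at 95% from scipy 1.17.1 (Python 3.11.15). Genes entered with 20 or more UMIs and a mean normalized expression over 0.01, and 3-fold was the size named. Cells were thinned to 6000 UMIs (992 and 2887 Dpp4-type and other cells of the library labelled Bap1WT, 1166 and 2830 of that labelled Bap1ΔMPC), leaving out shallower ones. TMM factors came from edgeR 4.0.16, with no test. Named were the genes described, the score genes, *Bap1*, list genes over 3-fold with 100 or more UMIs (up to 3 per direction), markers at 0, the 3 most similar genes at r of 0.2 or more, and 2 neighbors on each side. *Plet1os*, *Cldn3*, *Krt10*, *Krt20*, *Krt23*, *Cldn2*, *Cldn22*, *Epcam* and *Msln* were added after their values were seen. The methods state doublet gating before deposit. Scrublet in scanpy 1.11.5 marked 3 of 8481 cells (0.0354%), too few for a working caller, and all cells were kept. The counting code was tested on simulated data. 1 gene of the similarity ranking is not reported here.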

Additional observations from a re-analysis of the deposited data

Results flagged for a closer look

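*Krt19* differed between the libraries in opposite directions in the cell classes when all UMIs were counted. Its log2 ratio of the library labelled Bap1ΔMPC over that labelled Bap1WT was -1.47 in Dpp4-type cells and 1.05 in other cells. The rise in other cells is uncertain, since with thinned cells its interval took in equal levels, as given above. It rested on 30 and 39 cells with a *Krt19* UMI in the libraries labelled Bap1WT and Bap1ΔMPC. These were 0.983% (0.664 to 1.40) and 1.25% (0.888 to 1.70) of other cells, and the intervals overlapped. With 1 library per genotype, the difference between the classes was not tested.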

How the results depend on the processing

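No paired analysis was possible because 1 library stood for each genotype. Over 14 alternatives that give log2 ratios, 386 of 392 values kept their direction, and of 280 values over 3-fold, 280 kept it and 274 stayed over 3-fold, while 67 of the values moved beyond their interval. Of the co-detection ratios 26 stayed within it and 3 did not when cells were thinned: *Krt19* and *Sbsn* (1.39, thinned 1.54) and *Cldn10* and *Cldn11* (0.836, thinned 1.77) in the library labelled Bap1WT, and *Krt80* and *Sbsn* (1.09, thinned 1.01) in that labelled Bap1ΔMPC. In Dpp4-type cells the ratio between libraries ranged from 4.29 to 5.58 for *Krt7*, from 4.48 to 5.05 for *Plet1*, from 2.45 to 3.03 for *Cldn11* and from -3.94 to -3.19 for *Cldn10*. TMM scaling moved all genes by -0.07 in Dpp4-type and -0.11 in other cells. That scaling and leaving out the 3 cells marked by Scrublet are both counted among the 14 alternatives, though they could move ratios only a little. Also among the 14 was a class of the highest-scoring cells of each library, which was not planned beforehand. Among counts of genes over 3-fold, 67 stayed within 1.5 times and 1 did not. That was the class taken by a *Dpp4* UMI, chosen after seeing the data, with 2 genes higher in that class in the library labelled Bap1ΔMPC in place of 5, and the cause was not tested. The share of all genes over 3-fold was not counted for that class. Shares of cells depend on depth, and when cells were thinned or 2 UMIs were required 25 moved beyond their interval and 3 did not. With no second library, the spread between animals is unknown.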
